A study of Mus musculus with 6 samples.

Results

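The aminoacyl-tRNA synthetase genes were examined in RNA of pancreatic islets from male C57BL/6 mice aged about 20 weeks. The 3 control libraries came from mice with floxed Pdgfra alleles and no Cre (Pdgfrafl/fl Pdx1-Cre-), and the KO group, also 3 libraries, came from mice that add Pdx1-Cre to the same floxed alleles (Pdgfrafl/fl Pdx1-Cre+). Pdgfra encodes the alpha receptor of platelet-derived growth factor, and its loss is the subject of the study. Cre under the Pdx1 promoter acts in the whole pancreatic lineage, so it is not limited to beta cells. No Cre-positive group without floxed alleles was among the samples, so Cre and the loss of Pdgfra cannot be told apart. The labels call the cells beta cells, yet alpha, delta, duct, endothelial and acinar markers were all counted in all libraries. Nothing in the labels says outright that every library had its own mouse. The p-values then cover only library-to-library spread, which may be technical.

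The family was chosen by gene symbol, after results of this same KO-to-control comparison were known, in which Aars was among the few genes that passed. The differences below are therefore a description of the members and not independent evidence. Of 36 member genes, all 36 were found among the 55401 gene identifiers of the count table, and all 36 passed the filter on low counts. They comprise 20 cytosolic genes and 16 mitochondrial genes, whose names end in 2. Gars and Kars supply both compartments.

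An aminoacyl-tRNA synthetase typically joins 1 kind of amino acid to its tRNAs, and the charged tRNAs then feed the ribosomes. The cytosolic enzymes serve the translation of nuclear genes, including the large output of insulin in beta cells. The mitochondrial enzymes are also encoded in the nucleus, are imported, and serve only the proteins encoded in mitochondrial DNA. When an amino acid runs short, uncharged tRNA activates the kinase Gcn2 (Eif2ak4), translation of the transcription factor ATF4 increases, and ATF4 switches on amino acid synthesis, transport and many cytosolic synthetase genes.

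Library totals ran from 15026094 to 25299689 counts. Acinar genes, a list of 31 markers of the enzyme-secreting cells around islets, took 45.9%, 35.3% and 25.7% of counts in controls 1, 2 and 3 and 35.6%, 31.4% and 19.6% in KO 1, 2 and 3. A ribosomal RNA locus, CT010467.1, took 3.32% to 4.52% in controls and 5.36%, 12.6% and 18.5% in KO 1, 2 and 3. The 10 beta-cell markers took 7.99% to 15.1% in controls and 10.7% to 13.0% in KO. In bulk RNA, fewer cells of a type and less RNA per cell cannot be told apart.

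Each of the 20 cytosolic members had a lower mean in the libraries labelled KO, while the mitochondrial members were spread around no difference. The 20 cytosolic genes had log2 fold changes (KO over control, edgeR fit) from -0.88 to -0.10, with a median of -0.40, against a median of -0.01 over all 14212 genes tested. Of the 20, 1 fell past the threshold (adjusted p under 0.05 over all genes in edgeR's quasi-likelihood test), the alanyl-tRNA synthetase gene Aars, while 0.0633% of all genes were called lower. At an unadjusted p under 0.05, 14 of the 20 were lower, where 2.54% of all genes were. In 15 of the 20, all KO libraries lay below all controls, as in 5.94% of all genes. Of the 16 mitochondrial genes 8 had negative and 8 positive values with a median of -0.0025, and 0 passed the adjusted threshold in edgeR. At an unadjusted p under 0.05, 1 of the 16 was higher, Lars2, where 4.83% of all genes were higher.

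**Figure D1:**
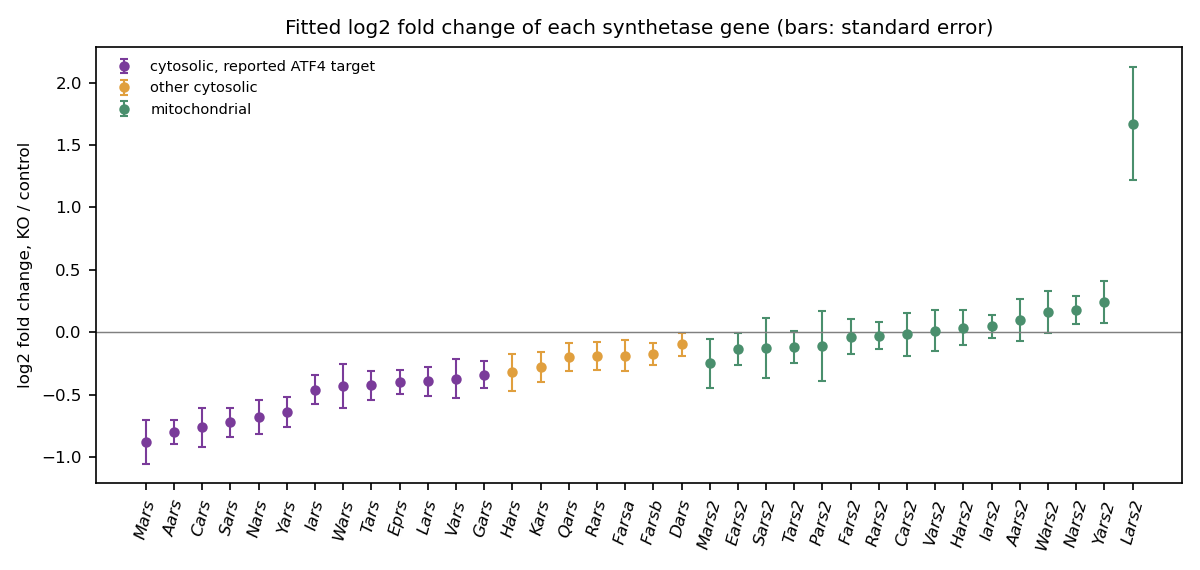
Fitted log2 fold change of each synthetase gene (vertical axis, KO over control, bars are the standard error of the edgeR fit), ordered within cytosolic and mitochondrial genes and coloured by group. All 20 cytosolic genes lie below 0, from Mars at -0.88 to Dars at -0.10, and 15 of the 16 mitochondrial genes lie between -0.25 and 0.24, with Lars2 apart at 1.67.

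Summed over the 20 cytosolic genes, the level was 1573, 1347 and 1266 CPM in controls 1, 2 and 3 (CPM, read counts relative to the library total after TMM scaling). In KO 1, 2 and 3 the sum was 1055, 1041 and 917 CPM. The means were 1396 ± 159 and 1004 ± 75.9 CPM (SD, n = 3 each), a ratio of 0.720, and the groups did not overlap. As a plain share of all counts, without any scaling, the same genes took 0.131%, 0.142% and 0.152% in controls and 0.108%, 0.0915% and 0.0963% in KO. Control 1 was thus the highest control on the scaled measure and the lowest on the plain one, while all KO libraries lay below all controls on each. The 15 mitochondrial genes other than Lars2 summed to 133, 126 and 124 CPM in controls and 128, 134 and 124 CPM in KO. Those means, 128 ± 4.95 and 129 ± 5.02 CPM (SD, n = 3 each), differed by less than the spread between libraries.

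**Figure D2:**
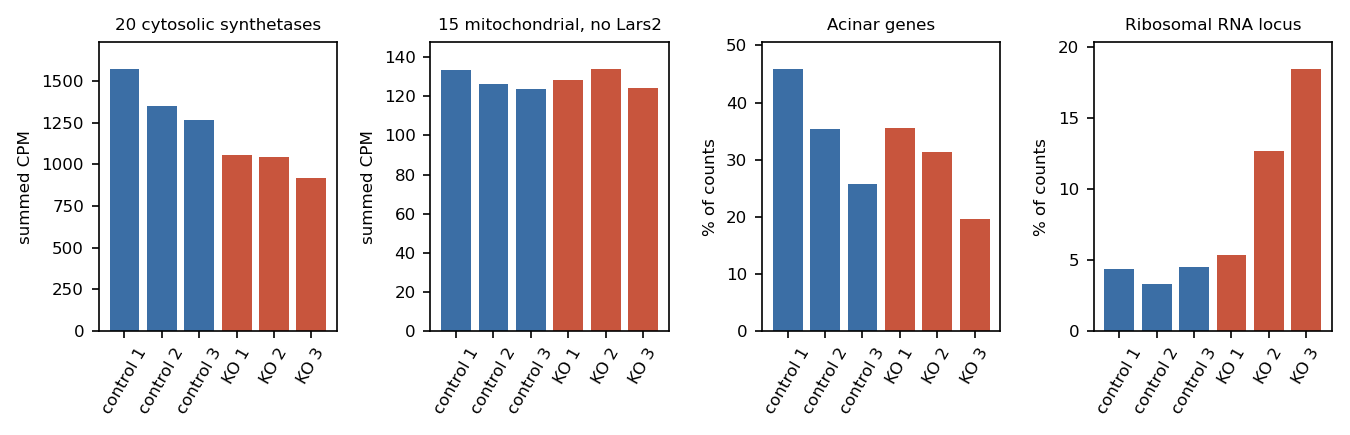
Bars give, for each library (blue control, red KO), the summed CPM of the 20 cytosolic genes and of 15 mitochondrial genes without Lars2, and the percent of all counts from acinar genes and from the ribosomal RNA locus. The cytosolic sum is 1266 or more in controls and 1055 or less in KO, the mitochondrial sum is 124 to 134 throughout, and the ribosomal RNA share is highest in KO 3 at 18.5%.

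Aars (ENSMUSG00000031960.14, chromosome 8, 111033144 to 111057664, GRCm38), whose enzyme charges alanine, stood at 106, 90.1 and 98.5 CPM in controls 1, 2 and 3 and at 59.1, 54.8 and 55.4 CPM in KO 1, 2 and 3. The KO libraries lay close together and far below the lowest control. The means were 98.2 ± 7.89 and 56.5 ± 2.33 CPM (SD, n = 3 each), or -0.80 on the log2 scale (SE 0.095, edgeR adjusted p = 0.0273). The size held when any 1 library was left out (-0.86 to -0.74), but the adjusted p then ran from 0.0723 to 0.147, so each of the 6 libraries was needed for the call. The 1326 exonic bases of Exosc6 lie within the exons of Aars on the same strand, Exosc6 itself was listed at 0 counts in all 6 libraries, and 15.1% of the exonic bases of Aars overlap another gene.

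Mars, the methionyl enzyme that also charges the initiator tRNA, had the lowest log2 fold change of the family at -0.88 (SE 0.17, edgeR adjusted p = 0.191). It stood at 77.3, 65.2 and 48.1 CPM in controls and 36.8, 37.7 and 28.8 CPM in KO. The controls spread widely, and the lowest of them still exceeded the highest KO library. Mars (chromosome 10, 127296221 to 127311786) ends tail to tail with Ddit3, the gene of the stress factor CHOP, and the pair shares 68 exonic bases on opposite strands, or 1.99% of the exonic bases of Mars.

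Sars, Cars, Nars and Yars, which charge serine, cysteine, asparagine and tyrosine, followed in size. Sars stood at 149, 137 and 134 CPM in controls and 88.3, 94.1 and 71.7 CPM in KO. Cars stood at 39.7, 30.9 and 30.9 CPM in controls and 21.3, 22.7 and 15.8 CPM in KO. In both genes KO 3 was lowest and the groups were well apart. Nars stood at 138, 120.5 and 102 CPM in controls and 83.6, 76.9 and 64.7 CPM in KO. Yars stood at 53.8, 46.0 and 47.0 CPM in controls and 36.2, 30.6 and 27.2 CPM in KO, again with no overlap. The log2 fold changes were -0.72 (SE 0.12), -0.76 (SE 0.15), -0.68 (SE 0.14) and -0.64 (SE 0.12), with edgeR adjusted p of 0.1001, 0.214, 0.214 and 0.164, none of them past the threshold. These 4 genes and Mars joined Aars past the threshold with DESeq2, where 6 of 36 members were called lower (0.234% of all genes), and in edgeR with an acinar score as covariate, where again 6 were (0.211% of all genes).

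A further 6 genes had groups that did not overlap and an unadjusted p under 0.05, with log2 fold changes from -0.46 to -0.28. Iars, the isoleucyl enzyme, stood at 64.7, 56.3 and 47.5 CPM in controls and 40.8, 41.7 and 39.6 CPM in KO. Eprs, which joins the glutamyl and prolyl enzymes in 1 protein, stood at 161, 144 and 142 CPM in controls and 115, 108 and 116 CPM in KO. Neither gene had overlapping groups, and the KO values were tighter than those of controls. Lars, the leucyl enzyme, which also takes part in leucine sensing, stood at 83.7, 71.7 and 63.0 CPM in controls and 54.9, 58.4 and 52.7 CPM in KO. Tars, the threonyl enzyme, stood at 52.5, 43.9 and 40.0 CPM in controls and 34.9, 35.7 and 30.7 CPM in KO. Again the lowest control exceeded the highest KO library in each. Gars, the glycyl enzyme of cytosol and mitochondria, stood at 147, 135 and 134 CPM in controls and 112, 119 and 97.4 CPM in KO. Kars, the lysyl enzyme of both compartments, stood at 82.3, 69.4 and 65.3 CPM in controls and 62.6, 63.6 and 52.7 CPM in KO. In Kars the margin was narrow, since control 3 lay just above KO 2, and without control 1 its log2 fold change was -0.18. The log2 fold changes of Iars, Eprs, Lars, Tars, Gars and Kars were -0.46, -0.40, -0.39, -0.43, -0.34 and -0.28, with edgeR adjusted p from 0.392 to 0.674.

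Wars, the tryptophanyl enzyme, which interferon is known to induce, stood at 163, 111 and 104 CPM in controls and 109, 89.9 and 80.9 CPM in KO. Its groups overlapped, since KO 1 exceeded control 3, and its mean in controls rested in part on control 1. It had a value of -0.43 on the log2 scale (SE 0.18, edgeR adjusted p = 0.6715), and of -0.21 without control 1, the library with the highest acinar share. Vars, the valyl enzyme, had -0.37 (SE 0.15) with overlapping groups.

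Hars, the histidyl enzyme, had a log2 fold change of -0.32 (SE 0.15). The smallest differences were those of Qars, Rars, Farsa, Farsb and Dars, which lay between -0.20 and -0.10 with SEs from 0.09 to 0.12. Farsa and Farsb encode the alpha and beta subunits of 1 phenylalanyl enzyme, and their values were close, at -0.19 and -0.18. In Hars, Farsa and Farsb the groups did not overlap, by a small margin, whereas in Dars, Qars and Rars they did. Hars and Hars2 lie head to head and share 195 exonic bases on opposite strands, so where strand was ignored their reads there cannot be told apart. The edgeR adjusted p of these 6 genes ran from 0.693 to 0.8275.

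**Figure D3:**
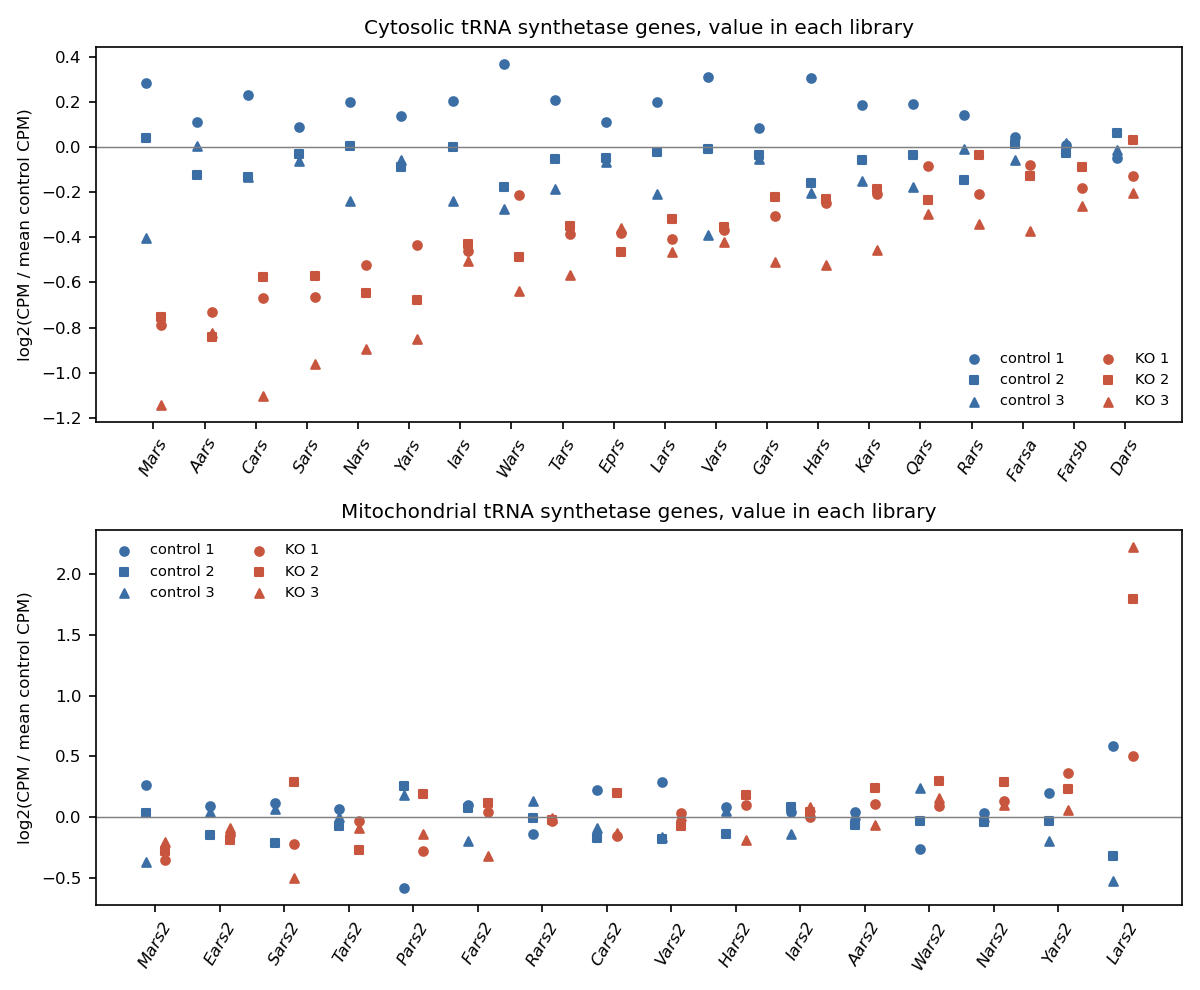
Level of each synthetase gene in each library as log2 of CPM over the mean of the control CPM, for cytosolic genes (upper panel) and mitochondrial genes (lower panel), blue for control and red for KO, with a marker shape per library number. KO 3 is the lowest library in 18 of the 20 cytosolic genes and control 1 the highest in 18, and in the mitochondrial panel the Lars2 values of KO 2 and KO 3 lie far above the rest.

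The 13 cytosolic genes widely reported as ATF4 targets (Aars, Cars, Eprs, Gars, Iars, Lars, Mars, Nars, Sars, Tars, Vars, Wars and Yars) had log2 fold changes from -0.88 to -0.34, with a median of -0.46. The other 7 (Dars, Farsa, Farsb, Hars, Kars, Qars and Rars) had values from -0.32 to -0.10, with a median of -0.19, so the ranges did not overlap, although the gap between Gars (-0.34) and Hars (-0.32) is smaller than the SE of either. All 13 of the first set were lower at an unadjusted p under 0.05, and so was 1 of the 7, Kars, where 2.54% of all genes were. The grouping comes from general knowledge of the amino acid response and was written down with earlier results of these data known. The 8 enzymes held in the multisynthetase complex had a median of -0.34, with Mars at -0.88 and Dars at -0.10 within the same complex, and the 12 free enzymes had a median of -0.43. No test of either contrast was made.

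Promoter sequences show which of these genes carry the core of the element through which ATF4 and C/EBP partners act, spelled TGATGNAA here. It was searched on both strands in 300 bases, 250 before and 50 after each RefSeq start (GRCm38.p6). Promoters were matched for 27 of the 36 members, 28 promoters in all since Aars2 has 2, and Cars, Hars, Lars, Nars, Rars, Vars, Wars, Hars2 and Pars2 had none. Of 13 cytosolic promoters 5 held the letters (38.5%) and of 15 mitochondrial promoters 0, compared with 1304 of 32851 promoters in the table (3.97%). For each of the 5 genes 1 match is printed within 30 bases, 5′ to 3′ along the gene, with the matched letters in capitals, which read TTNCATCA where the element lies on the opposite strand.
Aars: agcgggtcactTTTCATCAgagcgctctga
Gars: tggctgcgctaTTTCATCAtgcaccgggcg
Iars: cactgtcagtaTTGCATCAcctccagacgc
Tars: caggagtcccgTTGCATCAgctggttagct
Yars: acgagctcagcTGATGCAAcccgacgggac

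The windows lie at chr8:111033840-111033869 (Aars, plus strand), chr6:55037960-55037989 (Gars, plus), chr13:49682126-49682155 (Iars, plus), chr15:11399655-11399684 (Tars, minus) and chr4:129189895-129189924 (Yars, plus). Counting the first transcribed base as 1, the printed matches begin at 10 in Aars, -30 in Gars, 8 in Iars, -15 in Tars and 4 in Yars. The printed matches of Aars, Iars and Yars thus lie just inside the transcribed part. All 5 genes belong to the ATF4-reported set and had log2 fold changes of -0.80, -0.34, -0.46, -0.43 and -0.64. Mars, Sars and Eprs of that set held no match within these 300 bases, with log2 fold changes of -0.88, -0.72 and -0.40. A match is a stretch of letters and not a measured binding site.

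Among mitochondrial genes other than Lars2, log2 fold changes ran from -0.25 in Mars2 to 0.24 in Yars2, with a median of -0.02 and SEs from 0.09 to 0.28. The SEs of the cytosolic genes ran from 0.09 to 0.18, so the mitochondrial values are the less precise. Iars2, the isoleucyl enzyme, stood at 33.3, 34.1 and 29.3 CPM in controls and 32.2, 33.2 and 34.1 CPM in KO. Rars2, the arginyl enzyme, stood at 11.4, 12.5 and 13.8 CPM in controls and 12.3, 12.4 and 12.5 CPM in KO. The log2 fold changes were 0.05 (SE 0.09) and -0.03 (SE 0.11), with edgeR adjusted p of 0.922 and 0.959, and the groups lay within each other. Nars2, the asparaginyl enzyme, was the single mitochondrial gene whose groups did not overlap, at 9.71, 9.21 and 9.46 CPM in controls and 10.4, 11.5 and 10.2 CPM in KO. Its value was 0.17 (SE 0.11, edgeR adjusted p = 0.754), and 7.94% of all genes were higher in KO without overlap. Aars2, the partner of Aars, had 0.10 (SE 0.17).

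Setting each cytosolic gene against the mitochondrial gene for the same amino acid gives a ratio of raw counts that needs no scaling between libraries. Of 14 such pairs without Lars2, the ratio was lower in all KO libraries than in any control in 9 and overlapped in 5 (Rars, Tars, Wars, Farsa and Farsb, the last 2 sharing Fars2). Over the ratios of all tested genes to these 13 mitochondrial genes, 7.38% were lower in KO without overlap. Aars counts were 26.4, 24.2 and 24.9 times those of Aars2 in controls and 14.1, 11.9 and 14.9 times in KO. Yars over Yars2 was 9.73, 9.74 and 11.1 in controls and 5.83, 5.40 and 5.41 in KO. Nars over Nars2 was 14.2, 13.1 and 10.8 in controls and 8.05, 6.66 and 6.37 in KO. In these 3 pairs the KO libraries were all below the lowest control by a wide margin. Rars over Rars2 was 2.97, 2.22 and 2.21 in controls and 2.15, 2.41 and 1.94 in KO, and the groups mixed.

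**Figure D4:**
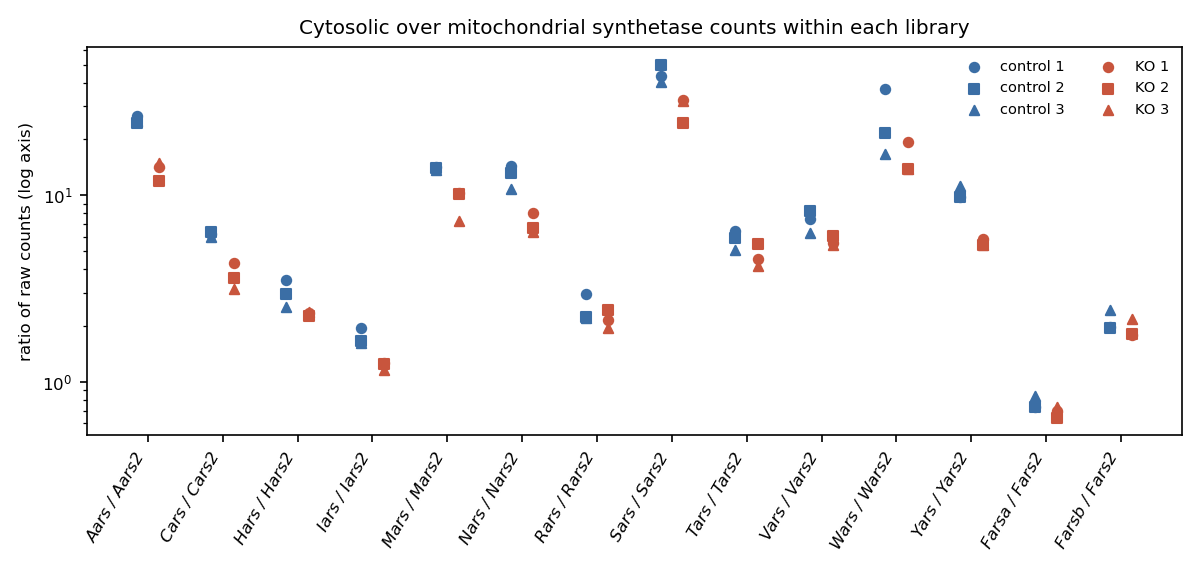
Ratio of raw counts of each cytosolic gene to the mitochondrial gene for the same amino acid (log axis) in each library, blue for control and red for KO. The ratio is below all controls in all KO libraries in 9 of 14 pairs, such as Aars over Aars2 at 24.2 to 26.4 in controls and 11.9 to 14.9 in KO.

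Levels of different genes were compared per kilobase of exon. In controls Gars was highest of the cytosolic genes at 44.4 ± 2.31 CPM per kilobase (SD, n = 3), followed by Wars at 36.6 ± 9.25, Nars at 27.6 ± 4.17 and Sars at 27.2 ± 1.56. The spread of Wars covers both the value of Gars and that of Nars, and Nars and Sars did not differ beyond their spread. In KO the same measure was 35.1 ± 3.53 for Gars, 27.0 ± 4.11 for Wars, 17.2 ± 2.20 for Nars and 16.5 ± 2.26 for Sars. Farsa was lowest, at 2.32 ± 0.085 in controls. Over the cytosolic genes the median control level was 10.6, and over mitochondrial genes other than Lars2 it was 1.22, with Rars2 (4.53 ± 0.43), Iars2 (3.63 ± 0.29) and Fars2 (2.39 ± 0.26) highest. The length used is the union of all annotated exons, which includes retained introns (18102 bases for Eprs) and lowers the value of such genes.

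Lars2, the mitochondrial leucyl enzyme, stood apart from the whole family. Its counts were 57079, 41785 and 64327 in controls 1, 2 and 3. In KO 1, 2 and 3 they were 107576, 169797 and 373231. These are 0.380%, 0.257% and 0.254% of all counts in controls and 0.442%, 0.931% and 1.49% in KO. Its level per kilobase in controls, 274.5 ± 121 CPM (SD, n = 3), exceeded that of every other member. The fitted log2 difference of 1.67 had an SE of 0.45 and did not pass (edgeR adjusted p = 0.515). Only without the filter on low counts was Lars2 called, as higher (edgeR adjusted p = 2.44e-10). The groups overlapped, since control 1 exceeded KO 1, at 4579 against 4309 CPM.

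The counts of Lars2 moved with those of ribosomal RNA. Lars2 counts came to 8.66%, 7.74% and 5.63% of the counts at the ribosomal RNA locus in controls and to 8.25%, 7.36% and 8.07% in KO. For each count of Gm15564, annotated as antisense RNA on chromosome 16, there were 15.3, 14.7 and 14.9 Lars2 counts in controls and 16.7, 14.7 and 16.7 in KO, while the counts of Gm15564 itself ran from 2843 to 22381. A BLAST search of the Lars2 transcripts found 72 bases that match Gm15564 at 98.6% identity, in the last exon of a Lars2 transcript (chr9:123462048-123462119, GRCm38), after the last coding base at 123461675 and so in the 3′ UTR. It found no match to CT010467.1. With the log2 CPM of the ribosomal RNA locus as a covariate the log2 fold change of Lars2 was 0.09, and without KO 2 and KO 3 it was 0.50. What share of the Lars2 counts comes from leucyl-tRNA synthetase transcripts was not tested, so Lars2 is given apart from the other mitochondrial genes.

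**Figure D5:**
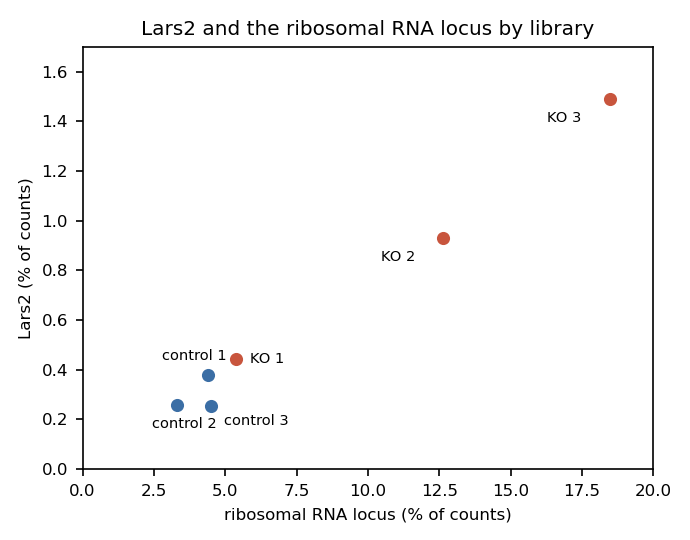
Share of counts of Lars2 (vertical axis, %) against that of the ribosomal RNA locus CT010467.1 (horizontal axis, %), 1 point per library, blue for control and red for KO. Lars2 takes 0.254% to 0.442% in the 3 controls and KO 1, 0.931% in KO 2 and 1.49% in KO 3, in the order of the ribosomal RNA share except among controls.

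The values of other RNA sources were set beside the cytosolic genes. Within each group the summed CPM of the 20 cytosolic genes ran in the order of the acinar share. In controls 1, 2 and 3 the shares were 45.9%, 35.3% and 25.7%, and the sums 1573, 1347 and 1266 CPM. In KO 1, 2 and 3 the shares were 35.6%, 31.4% and 19.6%, and the sums 1055, 1041 and 917 CPM. As a plain share of all counts, the cytosolic genes had the reverse order in controls and a mixed one in KO. Across groups, control 3, with an acinar share of 25.7%, had a sum of 1266 CPM. KO 1 (35.6%) and KO 2 (31.4%) had lower sums, at 1055 and 1041 CPM. With the acinar score as a covariate the median of the 20 was -0.31, all 20 stayed negative, and Aars had -0.78. KO 1, with a ribosomal RNA share of 5.36%, had a sum of 1055 CPM over the 20, below that of every control (1266 CPM or more). With KO 2 and KO 3 left out, which leaves 1 KO library, the median was -0.37 and Aars had -0.73 (SE 0.14). With the ribosomal RNA covariate the median was -0.43 and Aars had -0.78 (SE 0.17, edgeR adjusted p = 0.9999). Of the 20, 9 had an unadjusted p under 0.05 in edgeR, as had 214 of all 14212 genes in either direction. None passed the adjusted threshold. All 31 acinar markers had negative values (median -0.25) and so had all 7 fibroblast markers (median -0.54), with 0 of either list past the adjusted threshold or at an unadjusted p under 0.05 in edgeR. Pdgfra, the floxed gene, is 1 of the 7 fibroblast markers. Its RNA stood at 3.37, 5.13 and 3.82 CPM in controls and 3.73, 1.56 and 4.76 CPM in KO, with overlapping groups. The log2 fold change of Pdgfra was -0.26 (SE 0.34, edgeR adjusted p = 0.869). The fibroblast list took 0.01475%, 0.0291% and 0.0160% of counts in controls and 0.0166%, 0.00350% and 0.0222% in KO, so KO 2 alone lay below the controls. All 6 endothelial (median -0.14) and all 5 macrophage markers (median -0.09) were negative too, and their summed shares were also below every control in KO 2 alone. The part of acinar, ribosomal, fibroblast, endothelial or macrophage RNA in the cytosolic values was not tested.

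Partners of the synthetases were read from lists of related genes. All 3 scaffold genes of the multisynthetase complex had negative values and 0 passed, with Aimp2 at -0.35, Eef1e1 at -0.33 and Aimp1 at -0.13 (edgeR adjusted p from 0.727 to 0.819). Of 8 genes of nuclear export and translation elongation, 7 had negative values, the median was -0.25 and 0 passed. Xpot, the exportin of tRNA, stood at 71.9, 62.2 and 50.6 CPM in controls and 51.4, 50.3 and 50.5 CPM in KO (log2 fold change -0.27, edgeR adjusted p = 0.689). In Xpot control 3 lay within the range of the KO libraries. Eef1d and Eef1b2, subunits of the factor that recharges eEF1A with GTP, had -0.30 and -0.39. Of 11 tested genes of proofreading, amidation, formylation, selenocysteine and other charging steps, 9 had negative values with a median of -0.10 and 0 passed. The smallest p belonged to Pstk (-0.29), Dtd1 (-0.15) and Qrsl1 (-0.22). Sepsecs (0.10) and Tarsl2 (0.09), a synthetase-like gene that is not a member, had positive values with overlapping groups.

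Of 16 genes around the sensor of uncharged tRNA and ATF4, 14 had negative values with a median of -0.28. Of the 16, 1 fell (Atf5, edgeR adjusted p = 0.00129), while 0.0633% of all genes were called lower. At an unadjusted p under 0.05, 9 were lower, where 2.54% of all genes were. Atf4 stood at 153, 140 and 165 CPM in controls and 114, 118 and 101 CPM in KO, with no overlap (log2 fold change -0.46, SE 0.11, edgeR adjusted p = 0.358). Trib3 and Chac1, which ATF4 induces, had -1.51 and -1.52 (edgeR adjusted p = 0.0923 and 0.1007). Asns, asparagine synthetase, had -0.76 (SE 0.24, edgeR adjusted p = 0.544). Eif2ak4, which encodes Gcn2, had 0.19 (edgeR adjusted p = 0.777).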

How the data were processed

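The values are unnormalized counts of reads in genes, as deposited by the authors for 6 libraries together with exon lengths. In these counts the names of all KO libraries end in _2b, those of the controls do not, and the labels do not explain it. If the ending marks a separate handling, that cannot be told apart from genotype. The tools STAR 2.7.9 and featureCounts 2.0.0, and the builds GRCm38.p6 and mm10, are named in the submitters' processing notes. How strand and multiply mapped reads were treated is not given in the sources used here. Of the members, 13 members share exonic bases with another gene. Symbols came from a gene name table (55141 of 55401 identifiers), and a symbol held by several identifiers went to the one with the most counts.

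The whole table was fitted with edgeR 4.0.16 (glmQLFit and glmQLFTest, R 4.3.3, TMM, filterByExpr at min.count 10 and min.total.count 15, genotype as the only term), with Benjamini-Hochberg adjustment over 14212 genes. Standard errors were taken from the quasi-likelihood F statistic. The script was checked on simulated counts. Alternatives used DESeq2 1.42.0 and limma 3.58.1, among others. Intervals of shares of counts (95% Wilson, such as 45.91% to 45.96% for the acinar share of control 1) cover counting error only. Transcripts (GENCODE) were compared with blastn 2.17.0. Promoters came from RefSeq. A further promoter sequence is not reported here. The closest pair of libraries had a chi-square over its degrees of freedom of 13.3, far beyond sampling noise, and all 6 were kept.

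Members and lists were chosen with earlier results of these data known. Given in every library were members whose groups did not overlap at an unadjusted p under 0.05, members called, and the 3 highest per kilobase in each compartment. Nars2 was added after its values were seen, and so were the genes of the amino acid response beyond the 3 with the smallest p.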

Additional observations from a re-analysis of the deposited data

How the results depend on the processing

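All 20 cytosolic genes had negative values in each of the 16 alternatives, and their median ran from -0.50 to -0.29. Leaving out KO 2 and KO 3 together, and removing the ribosomal RNA locus with Lars2 and Gm15564, were chosen after seeing the data. The number of members called, 1 of 36, was 10 without the filter on low counts, where 26297 genes were tested. Of those 10, Lars2 was called higher and the others were cytosolic and lower. The number was 6 with DESeq2, 6 with the acinar covariate and 0 with the ribosomal RNA covariate. With any 1 library left out it was 0, where 11 to 16 cytosolic genes had an unadjusted p under 0.05 in edgeR. In those fits 14103 to 14759 genes were tested, and 582 to 1374 of all genes had such a p, in either direction. Over all genes the 10 calls became 300 without the filter, 49 with DESeq2, 44 with the acinar covariate, 6 with limma-voom, 2 to 6 with 1 library left out, 0 with the ribosomal RNA covariate (214 at an unadjusted p under 0.05) and 0 with KO 2 and KO 3 left out (448). The last leaves 1 KO library, assumed to vary like controls. Iars2 and Rars2, both near 0, changed sign under the ribosomal RNA covariate (-0.0094 and 0.0026) and when control 3 was dropped. With 1 library left out Iars2 ran from -0.0213 to 0.0887 and Rars2 from -0.0884 to 0.0513, control 3 giving the lowest value of Iars2 and the highest of Rars2. The cause of these changes was not tested, except that fewer samples enter when libraries are left out.

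With the replicate number as a block (replicate block) 36 genes and 6 members were called (Aars, Cars, Mars, Nars, Sars and Yars). The deviations of libraries with the same number had correlations of 0.16, -0.16 and 0.14, and those of other pairs ran from -0.24 to 0.16. Controls 1 and 3 correlated best with the KO library of the same number, and control 2 with KO 3. Such small correlations between so few libraries cannot decide whether the libraries were paired. Counts limit the mitochondrial genes most, the lowest being 15 counts (Pars2 in control 1).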

Other observations

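Further lists give the surroundings of the synthetases. Of 22 genes of tRNA synthesis and processing, 14 had negative and 8 positive values with a median of -0.03, and 0 passed in the edgeR test. Bdp1, a subunit of the RNA polymerase III initiation factor, stood at 21.0, 18.8 and 21.6 CPM in controls and 25.04, 25.2 and 36.9 CPM in KO, with no overlap of the groups and a value of 0.51 on the log2 scale (SE 0.155, edgeR adjusted p = 0.544). KO 3 was highest, as it was in the ribosomal RNA share. Polr3c and Polr3k, subunits of RNA polymerase III, had -0.19 and -0.17. Of 13 factors of mitochondrial translation, 11 had negative values with a median of -0.11, and 0 passed, the smallest p belonging to Mto1 (-0.24), Guf1 (-0.19) and Gfm2 (-0.15).

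By fold of the catalytic domain, the 10 cytosolic genes of class I had a median log2 fold change of -0.42 and the 10 of class II one of -0.33. Each range covers most of the family (-0.88 to -0.19 and -0.80 to -0.10). Eprs, which joins the glutamyl and prolyl enzymes, was counted in class I only, by its glutamyl part.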
